A study of Mus musculus with 21 samples.

Results

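The interaction of BIO with cell aggregation is the BIO effect in aggregated cells minus the BIO effect in dispersed cells, computed as (aggregated BIO minus aggregated DMSO) minus (dispersed BIO minus dispersed DMSO) on the log2 scale. It was measured on 12 of the 21 arrays of the series, chosen by their titles as those cultured for 24 h, with 3 arrays in each of 4 groups. All groups held nephron progenitors sorted for the GFP of a Six2GFPcre BAC transgene from E16.5 mouse kidneys of mixed background, so that GFP and Cre were present in the control groups too and the sort rested on the Six2 regulatory sequences that drive the transgene. The labels give 40000 cells per sample and medium with 10% fetal bovine serum for every group. The 2 aggregated groups were spun into a pellet and cultured with 4 µM BIO or with the same volume of its solvent DMSO, and the 2 groups titled dispersed received the same BIO or DMSO for 24 h. How the dispersed cells were kept apart is not stated in the labels. The 3 arrays of a group are labelled biological replicates, but no litter or culture is named. Every p-value therefore sets a difference only against the spread between arrays of a group, part of which may be technical. In the main fit that spread was pooled over the 7 groups of all 21 arrays, so it includes groups outside the interaction.

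BIO is an indirubin-derived inhibitor of glycogen synthase kinase 3, the kinase that marks beta-catenin for destruction. Inhibiting it lets beta-catenin build up and act with TCF/LEF factors, as it does when a Wnt ligand binds its receptors. In the embryonic kidney, Wnt9b from the ureteric bud acts on the Six2-expressing cap mesenchyme, where beta-catenin signalling starts the change into pretubular aggregates and renal vesicles, a step in which cells gather, turn on genes such as Wnt4, Lhx1 and Pax8 and become epithelial. The design therefore asks which genes answer the same inhibitor differently when the progenitors are packed together and when they are apart.

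Signals are given on the linear scale after quantile normalisation, 1 value per array, and a group with a mean under 41.8 (a level that 95% of bacterial control probe set readings did not exceed) is called below background. Median array signals as deposited ran from 87.2 to 97.8 on the aggregated arrays and from 102 to 106 on the dispersed ones. Of the 18193 genes, 78.0% to 79.6% lay above background on the aggregated arrays and 76.1% to 76.9% on the dispersed ones. The mean correlation of an array with the others of its group was 0.978 to 0.985 in aggregates and 0.990 to 0.992 in dispersed cells. The 3′ beta-actin control probe set stood apart with the groups: it read 2669 to 5409.7 on the aggregated BIO arrays and 7700.5 to 12586 on the aggregated DMSO arrays, against 8628 to 9219 in dispersed cells with BIO and 11993 to 12313 with DMSO. The part of these array differences in the results was not tested, and counts with the beta-actin control as a covariate are given beside the main ones. Whether the level of this control reflects RNA quality or a change of beta-actin itself cannot be told from these arrays. A call lost with the covariate is therefore not shown to be technical, and the covariate may remove part of a BIO effect. Six2 itself was bright on all 12 arrays and Cited1, the other defining progenitor marker, was below background in all 4 groups. In bulk RNA of this kind, fewer cells of a type and less RNA per cell cannot be told apart.

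BIO changed 5457 genes in aggregates (30.0% of those tested) and 5231 genes in dispersed cells (28.8%), and the effect differed between the formats for 285 genes (1.57%) at a Benjamini-Hochberg adjusted p under 0.05 in limma. The interaction was positive for 132 genes (0.726%) and negative for 153 (0.841%). It was at least 2-fold for 163 of them, and the median over all genes was 0.05. With the beta-actin control as a covariate, 120 genes passed, 30 positive and 90 negative, of which 97 were among the 285. Leaving out 1 array lowered the count by more than 1.5 times for the first aggregated BIO array (171 genes), the third dispersed DMSO array (177) and the third dispersed BIO array (180).

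For most of these genes the formats differed with BIO and were not called different in DMSO. The format effect passed the threshold with BIO for 243 of the 285 genes and in DMSO for 58, against 17.2% and 2.63% of all genes. The interaction equals the format effect with BIO minus that in DMSO. Genes chosen by it therefore hold more called format effects by construction, and these counts only describe them. The largest class, 91 genes, rose more or only in dispersed cells (median interaction -1.14), and 54 genes rose more or only in aggregates (median 1.36). A further 65 genes fell more or only in dispersed cells and 51 fell more or only in aggregates. BIO moved 24 genes in opposite directions, 13 up in aggregates and down in dispersed cells and 11 the other way. These counts moved with the fit. With the beta-actin covariate they were 59 for the rise in dispersed cells, 13 for the rise in aggregates, 15 for the fall in dispersed cells, 28 for the fall in aggregates and 5 for opposite directions. Over the fits that left out 1 array, the same counts ran from 61 to 86, 28 to 61, 35 to 60, 28 to 55 and 16 to 27.

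**Figure D1:**
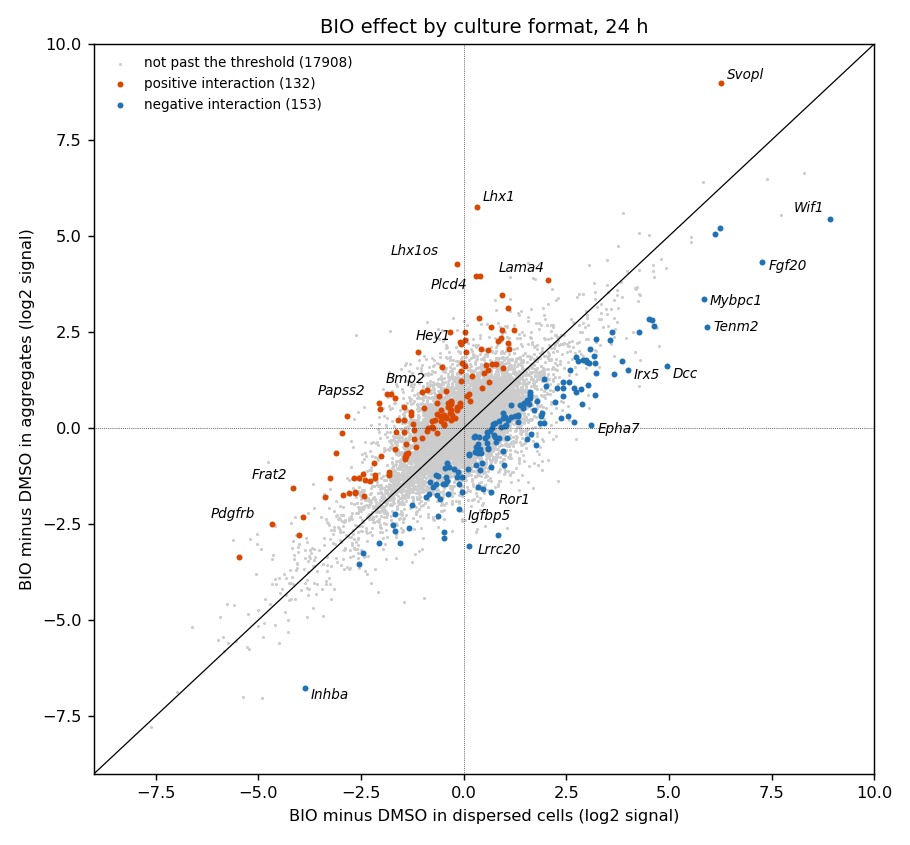
Each point is 1 of 18193 genes, with the BIO effect in dispersed cells on the horizontal axis and in aggregates on the vertical axis (log2, mean of 3 arrays minus mean of 3 arrays). The solid line marks equal effects. The 132 orange genes lie above the line and the 153 blue genes below it, with Lhx1 high above it near 0 on the horizontal axis and Wif1, Dcc and Tenm2 below it far to the right.

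Lhx1, a LIM homeodomain factor that is required in the renal vesicle for the nephron to form, was measured above background in 1 of the 4 groups. In aggregates its signals were 2.7, 3.3 and 3.8 in DMSO and 198, 346 and 177 with BIO. In dispersed cells they were 5.0, 4.4 and 2.8 in DMSO and 4.8, 5.4 and 5.6 with BIO. Only the 3 aggregated BIO arrays lay above background, and their mean was at least 5.38-fold higher than in aggregated DMSO. The interaction was 5.44 ± 0.45 (adjusted p = 1.12e-05), and 4.89 (adjusted p = 0.000935) with the beta-actin covariate. Its size rests on readings below background: with those raised to background it was 2.43 (adjusted p = 0.00591), and on linear signal it did not pass (adjusted p = 0.68). The other Lhx1 probe set did not pass, and the mean of both gave 2.95. Lhx1os is a noncoding transcript that starts next to Lhx1 and runs the other way. Its signals in aggregates were 1.8, 6.0 and 5.4 in DMSO and 75.2, 151 and 77.5 with BIO, and in dispersed cells 18.7, 18.6 and 32.6 in DMSO and 16.1, 26.2 and 18.7 with BIO. The interaction was 4.43 ± 0.53 (adjusted p = 0.000456). Both DMSO groups lay below background with lower readings in aggregates, and the call was lost when every value below background was raised to it (1.18, adjusted p = 0.14).

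The region between the starts of these genes is shown because both transcripts of the pair moved together. RefSeq on GRCm38.p6 places the window of 250 bases before and 50 after the Lhx1 start at chr11:84525485-84525784, minus strand, and the start of Lhx1os 126 bases upstream of that of Lhx1, on the opposite strand. Capitals mark the 127 bases that run from the Lhx1os start to the Lhx1 start, both included.
Lhx1: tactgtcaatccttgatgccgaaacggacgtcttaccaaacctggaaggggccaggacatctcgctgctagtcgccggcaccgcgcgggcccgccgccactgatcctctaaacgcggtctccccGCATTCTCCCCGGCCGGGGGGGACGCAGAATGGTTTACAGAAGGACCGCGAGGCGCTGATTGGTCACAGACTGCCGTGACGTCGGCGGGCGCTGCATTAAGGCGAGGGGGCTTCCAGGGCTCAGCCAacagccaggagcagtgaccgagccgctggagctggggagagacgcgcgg
The letters CTTTGA, the core of the TCF/LEF motif, or their reverse complement TCAAAG were not in this window. Among 32851 such RefSeq windows 16% held them on either strand. The share was 14.4% of the 104 matched genes with a positive interaction and 17.4% of the 109 with a negative one, beside 15.8% of the 14452 tested genes that had a window.

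Of the 23 measured genes of the pretubular aggregate and renal vesicle list, 4 had a positive and 3 a negative interaction, with a median of 0.60 that became 0.19 with values raised to background. Over all genes 0.726% were positive and 0.841% negative, shares to be set beside this and each later list count. Besides Lhx1, the positive members were Papss2, Bmp2 and Pax8. Bmp2, a secreted BMP ligand, moved in opposite directions: it rose in aggregates, from 566, 638 and 714 to 1188, 1477 and 1132. Among dispersed cells BIO lowered it, from 719, 678 and 674 to 403, 343 and 369. The groups did not overlap within either format, and the interaction was 1.87 ± 0.19 (adjusted p = 0.000123), or 1.54 (adjusted p = 0.00448) with the beta-actin covariate. Papss2, which makes the sulfate donor for proteoglycans, read 158, 226 and 314 in DMSO and 342, 466 and 275 with BIO in aggregates, where its effect did not pass. It fell 4.18-fold in dispersed cells, to 44.6, 95.2 and 67.9, with an interaction of 2.72 ± 0.41 (adjusted p = 0.00223). None of its 3 other probe sets passed, and neither did the beta-actin covariate fit (adjusted p = 0.0604).

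Pax8, a paired-box factor of the early nephron chosen for description after its values were seen, rose only in aggregates. Its signals there were 382, 368 and 369 in DMSO and 832, 1004 and 780.0 with BIO. In dispersed cells they were 276, 284 and 285 in DMSO and 287, 254 and 264 with BIO, and the DMSO and BIO arrays overlapped. The interaction was 1.29 ± 0.16 (adjusted p = 0.000552), although its other probe set did not pass and the mean of the 2 probe sets gave an adjusted p of 0.81. The 3 negative members were the proximal and intermediate segment factor Irx3 and the cadherins Cdh4 and Cdh6. Wnt4, the ligand that drives the epithelial change, did not pass: it read 4189, 4877 and 5764 in aggregates and 4616, 5234 and 4742 in dispersed cells with BIO, from 437 to 653 on the 6 DMSO arrays, with an interaction of -0.13 ± 0.25 (adjusted p = 0.89).

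**Figure D2:**
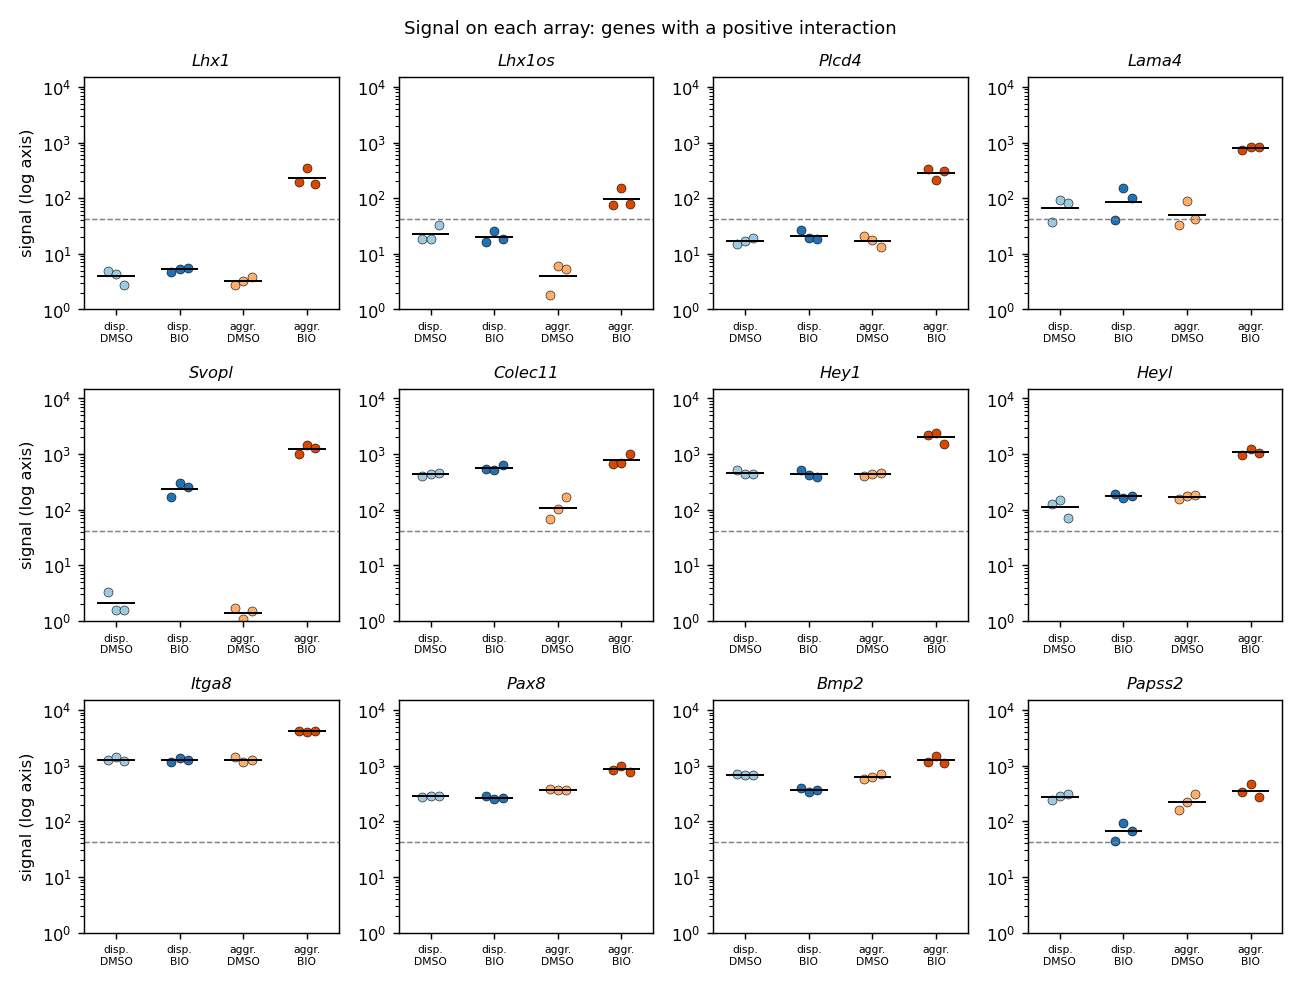
Signal on each of the 12 arrays (log axis) for 12 genes with a positive interaction; each point is 1 array, each black bar the geometric mean of 3, and the dashed line the background of 41.8 (disp., dispersed; aggr., aggregated). In Lhx1, Plcd4, Lama4, Hey1, Heyl, Itga8 and Pax8 the aggregated BIO arrays stand above the other 3 groups, whereas Papss2 is set apart by its fall in dispersed cells.

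Notch signalling acts in the renal vesicle to pattern its proximal cells. Of the 16 measured genes of the Notch list, 3 were called, where 1.57% of all genes were. All 3, the transcriptional effectors Hey1, Heyl and Hes1, had a positive interaction. Hey1 rose 4.57-fold in aggregates, from 411, 444 and 466 to 2228, 2361 and 1550.2. Its dispersed readings were 510.4, 440.5 and 444 in DMSO and 526, 425 and 388 with BIO. The aggregated BIO arrays lay above all 9 others, and the interaction was 2.26 ± 0.30 (adjusted p = 0.001). Heyl behaved alike in aggregates, with 159, 178 and 181 in DMSO and 978, 1233 and 1050.0 with BIO, while in dispersed cells the values were 129, 148 and 72 in DMSO and 195, 163 and 174 with BIO. Its interaction of 1.98 ± 0.42 (adjusted p = 0.024) lost its call in 7 of the 12 fits that left out 1 array (adjusted p up to 0.0679). Hes1 differed in kind: it fell in both formats, to 462, 462 and 366 in aggregates and further, to 139, 192 and 196, in dispersed cells. Its interaction was 1.27 ± 0.26 (adjusted p = 0.0183), and it lost its call in 4 of the 12 leave-one-out fits (adjusted p up to 0.0561). With the beta-actin covariate Hey1 passed, at 2.04 (adjusted p = 0.0273), and Heyl and Hes1 did not.

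Among 24 measured basement membrane and integrin genes, 4 had a positive interaction and none a negative one, with a median of 0.27 (0.11 with the beta-actin covariate). Lama4, the laminin alpha-4 chain, read 33.4, 89.2 and 42.1 in DMSO and 732, 833 and 843 with BIO in aggregates. The dispersed arrays read 36.7, 93.9 and 82.4 in DMSO and 41.3, 153 and 103 with BIO. The aggregated BIO arrays stood apart from all others, with an interaction of 3.58 ± 0.59 (adjusted p = 0.00502), although the other probe set did not pass and the call was lost with the beta-actin covariate (adjusted p = 0.056). Itga8, the integrin chain through which the cap mesenchyme and the bud communicate by way of nephronectin, rose 3.23-fold, from 1443, 1186 and 1254 to 4229, 4044 and 4231, in aggregates alone. Dispersed arrays gave 1265, 1409 and 1205 in DMSO and 1147, 1364 and 1239.9 with BIO, and the DMSO and BIO arrays overlapped. Its interaction of 1.74 ± 0.16 (adjusted p = 4.26e-05) was 1.67 (adjusted p = 0.00239) with the beta-actin covariate. Lamb1, the laminin beta-1 chain, rose in aggregates to 7020.3, 7527 and 7229.6 from 4448, 4234 and 4556, with an interaction of 0.55 ± 0.11 (adjusted p = 0.0152). Nid2, the linker protein nidogen-2, instead fell in both formats, to 224, 210.0 and 202 in aggregates and to 92.2, 116 and 105 in dispersed cells, and its interaction was 1.20 ± 0.22 (adjusted p = 0.0113). Neither Lamb1 nor Nid2 passed with the beta-actin covariate.

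The other large positive interactions came from genes outside these lists. Plcd4, a phospholipase C delta that cleaves membrane inositol lipids, read 21, 17.8 and 13.3 in DMSO and 339, 210.1 and 314 with BIO in aggregates and 14.8, 16.7 and 19.6 in DMSO and 26.3, 19.2 and 18.2 with BIO in dispersed cells. Only the aggregated BIO arrays were above background, at least 6.60-fold higher than DMSO, with an interaction of 3.67 ± 0.45 (adjusted p = 0.000536) that its 2 other probe sets did not share. Svopl, a transporter-like membrane protein, rose in both formats. From 1.1 to 3.3 on the 6 DMSO arrays it reached 993, 1437 and 1315 in aggregates and 169.7, 303 and 252 in dispersed cells, so that with BIO the aggregates were 5.23-fold higher than dispersed cells, and the interaction was 2.74 ± 0.36 (adjusted p = 0.000959).

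For 3 further genes a fall passed the threshold in dispersed cells and not in aggregates. Sco2, a copper chaperone for cytochrome c oxidase, read 248, 190.1 and 253 in DMSO and 272, 360.2 and 338 with BIO in aggregates. It dropped below background in dispersed cells, from 154, 155 and 157 to 39.5, 34.2 and 38.8. The interaction was 2.51 ± 0.30 (adjusted p = 0.000456), and 2.73 (adjusted p = 0.0045) with the beta-actin covariate. Rassf6, a Ras-association protein linked to Hippo signalling, rose in aggregates from 44.8, 61.3 and 67.7 to 98.6, 118 and 105. It fell below background in dispersed cells, from 85.8, 105 and 63.3 to 29.7, 30.4 and 11.8. The rise passed too (adjusted p = 0.0343), so Rassf6 is also among the genes that BIO moved in opposite directions. Its interaction of 2.75 ± 0.43 (adjusted p = 0.00291) did not pass with the beta-actin covariate (adjusted p = 0.0637). Tnnt3, a skeletal muscle troponin, read 39.7, 8.2 and 18.3 in dispersed cells with BIO, against 96.9 to 183 on the other 9 arrays. Its interaction of 2.47 ± 0.50 (adjusted p = 0.019) lost its call in 3 of the 12 leave-one-out fits (adjusted p up to 0.0542) and with the beta-actin covariate (adjusted p = 0.23), and was 1.33 (adjusted p = 0.00328) with values raised to background. Frat2, itself a GSK3-binding protein, fell in both formats and further in dispersed cells: with BIO it read 155, 232 and 125 in aggregates and 53, 25.9 and 61.3 in dispersed cells, with an interaction of 2.59 ± 0.48 (adjusted p = 0.0109), and an adjusted p of 0.16 with the covariate.

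Colec11, a secreted collectin of innate immunity, read 67.1, 103 and 171 in DMSO and 655, 692 and 1014 with BIO in aggregates and 402, 437 and 457 in DMSO and 535, 511 and 649.6 with BIO in dispersed cells, with an interaction of 2.47 ± 0.45 (adjusted p = 0.009). With BIO the lowest aggregated array lay just above the highest dispersed one, and in DMSO every aggregated array was below every dispersed one. Gsta3, a glutathione transferase, had a mean above background only in aggregated BIO, at 56.6, 60.2 and 33.9, and its interaction of 2.47 ± 0.48 (adjusted p = 0.0152) was lost when values were raised to background (0.31), both DMSO groups being below it.

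The Wnt target and feedback list showed the opposite side. BIO raised 11 of its 20 measured genes in each format. Over all genes, 30.0% in aggregates and 28.8% in dispersed cells were called for BIO in either direction. On this list none had a positive interaction and 4 had a negative one, with a median of -0.35 (-0.17 with values raised to background). Wif1, a secreted protein that binds Wnt ligands, read 3.3, 11.6 and 2.6 in DMSO and 238, 374 and 174 with BIO in aggregates. The dispersed values were 2.9, 1.3 and 2.6 in DMSO and 1435, 1633 and 1615 with BIO. From below background in both DMSO groups it rose in both formats, and with BIO the aggregates were 6.23-fold lower than dispersed cells; the interaction was -3.49 ± 0.56 (adjusted p = 0.00404), or -2.64 (adjusted p = 2.79e-05) with values raised to background. Apcdd1, a membrane inhibitor of Wnt receptors, rose 4.88-fold in aggregates, to 2176, 3426 and 2638, and 11.9-fold in dispersed cells, to 6236, 7414 and 6991. Its interaction was -1.29 ± 0.27 (adjusted p = 0.0238), and 3 of its 5 other probe sets passed in the same direction. The call was lost in 6 of the 12 leave-one-out fits (adjusted p up to 0.07) and with the beta-actin covariate (adjusted p = 0.11).

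Tnfrsf19, a TNF receptor family member induced by beta-catenin, reached 3166, 3606 and 3116 in aggregates and 4975, 5195 and 5245 in dispersed cells, with an interaction of -1.07 ± 0.23 (adjusted p = 0.0283). Nkd1, an inhibitor of Dishevelled, reached 1270.1, 1592 and 1759.8 and 2569, 2732 and 2672, with an interaction of -0.82 ± 0.19 (adjusted p = 0.04). These calls were lost in 8 of the 12 and 10 of the 12 leave-one-out fits (adjusted p up to 0.0854 and 0.11), and that of Nkd1 also with the beta-actin covariate (adjusted p = 0.46). The most used readouts of the pathway did not pass. Axin2, a scaffold of the destruction complex, read 3733, 3798 and 3056 with BIO in aggregates and 4790.1, 4749 and 4864 in dispersed cells, and every dispersed array was above every aggregated one. Its interaction was -0.93 ± 0.24 (adjusted p = 0.069). Lef1 gave -0.27 ± 0.24 (adjusted p = 0.74). Sp5, a zinc-finger factor induced by beta-catenin, rose from below background to 2064, 2208 and 1659.6 in aggregates and to 1953, 1977 and 2021 in dispersed cells, ranges that overlap, and gave -1.67 ± 0.65 (adjusted p = 0.29), or -0.09 (adjusted p = 1) with its DMSO readings raised to background.

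Wnt5a and its receptor Ror1, which carry Wnt signals that do not act through beta-catenin, both had negative interactions. Wnt5a, described after its values were seen, read 121, 184 and 150.2 in DMSO and 202, 197 and 159 with BIO in aggregates, where the effect did not pass. It rose 5.83-fold in dispersed cells, from 130.1, 170.0 and 107 to 728, 730.3 and 901. The interaction was -2.24 ± 0.27 (adjusted p = 0.000536), and -2.56 (adjusted p = 0.00292) with the beta-actin covariate. Ror1 moved in opposite directions: it fell in aggregates from 775, 1112 and 1053 to 353, 279 and 287 and rose in dispersed cells from 855, 791 and 832 to 1276, 1325 and 1307. The groups did not overlap in either format, and the interaction was -2.32 ± 0.21 (adjusted p = 3.81e-05). For Wnt5a none of 3 other probe sets passed, and for Ror1 none of 2, and the mean of all probe sets gave adjusted p-values of 0.068 and 0.67.

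Dcc, a netrin receptor, rose to 339.5, 342 and 234 in aggregates, from 81, 94.3 and 122. The rise in dispersed cells was to 1104, 1133 and 1157, from 18.1, 63 and 39. The interaction was -3.34 ± 0.57 (adjusted p = 0.00611), and -3.93 (adjusted p = 0.0208) with the beta-actin covariate. Tenm2, a teneurin, showed the same pattern with 290.1, 281 and 235 against 1029, 1209 and 1028 with BIO; its interaction of -3.30 ± 0.69 (adjusted p = 0.0221) lost its call in 4 of the 12 leave-one-out fits (adjusted p up to 0.0587) and with the beta-actin covariate (adjusted p = 0.0927), and was -2.16 (adjusted p = 2.92e-05) with values raised to background. Epha7, an ephrin receptor, rose only in dispersed cells, from 136, 221 and 169 to 1336, 1558 and 1574. In aggregates it read 331, 302 and 99.9 in DMSO and 184, 161 and 397 with BIO, with the third array the lowest in DMSO and the highest with BIO. The interaction was -3.02 ± 0.57 (adjusted p = 0.0113), it was -1.55 (adjusted p = 0.16) with the beta-actin covariate, and 1 of 3 other probe sets passed.

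Epha3 and Flrt3 were described after their values were seen. Epha3, another ephrin receptor, rose in both formats, to 850.2, 928 and 613 in aggregates and 2289, 2136 and 2216 in dispersed cells, with an interaction of -1.78 ± 0.27 (adjusted p = 0.00261). Flrt3, a membrane partner of FGF receptors and of guidance receptors, read 1617, 1334 and 1430.0 in DMSO and 1867, 1856 and 1537 with BIO in aggregates, where its effect did not pass. It rose 5.21-fold in dispersed cells, from 1104, 1051 and 1042 to 5971, 5043 and 5689. Its interaction was -2.12 ± 0.26 (adjusted p = 0.000552), its other probe set passed too, and with the beta-actin covariate it was -1.84 (adjusted p = 0.0176).

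**Figure D3:**
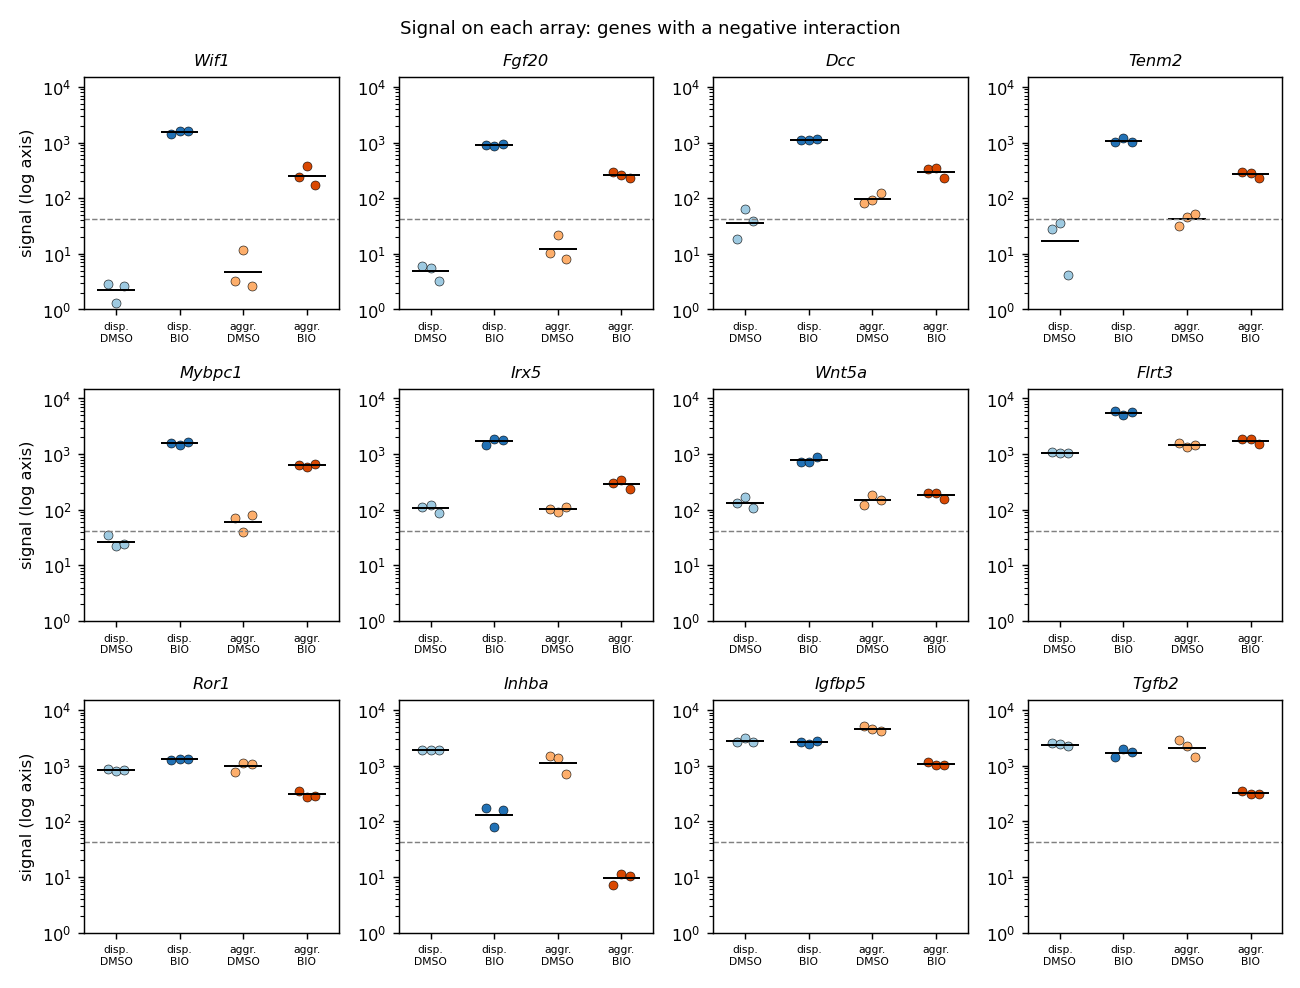
Signal on each of the 12 arrays (log axis) for 12 genes with a negative interaction, drawn as in the plot of genes with a positive interaction. In the first 8 panels the dispersed BIO arrays stand above the aggregated BIO arrays, and in Ror1, Inhba, Igfbp5 and Tgfb2 the aggregated BIO arrays are the lowest group.

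Of 20 measured nephron progenitor genes, 2 had a positive and 2 a negative interaction, with a median of -0.04 that became -0.33 without the third dispersed DMSO array. Fgf20, an FGF ligand that maintains the progenitor niche, rose to 295, 265 and 235 in aggregates and to 897, 868 and 927 in dispersed cells, from below background in DMSO, with an interaction of -2.96 ± 0.47 (adjusted p = 0.00404), or -1.76 (adjusted p = 2.24e-06) with values raised to background. Rspo3, which strengthens Wnt signals at the receptor, fell in both formats and further in aggregates. It went from 2290.4, 2648 and 2774 to 762, 829 and 569 there, against 2329.7, 2024 and 2169.8 to 1626, 1319 and 1443 in dispersed cells, with an interaction of -1.27 ± 0.23 (adjusted p = 0.01). Uncx, a paired-type homeodomain factor, rose in both and further in aggregates, to 1655, 2025 and 1827 against 649, 698 and 748, with an interaction of 1.13 ± 0.23 (adjusted p = 0.0207). It lost its call in 5 of the 12 leave-one-out fits (adjusted p up to 0.0632) and with the beta-actin covariate (adjusted p = 0.1). Itga8, above, was the other positive member. Six2, which keeps the progenitors undifferentiated, fell with BIO to 1906, 1675 and 1804 in aggregates and to 1609.5, 1468 and 1548 in dispersed cells, and its interaction of 0.25 ± 0.17 (adjusted p = 0.64) did not pass. Cited1 could not be compared, being below background in all 4 groups. The 9 measured progenitor markers, Six2 among them, summed to 12462 to 14139 in DMSO and 14742 to 15325 with BIO in aggregates. In dispersed cells the sums were 11778 to 12959 and 12327 to 12709. By group means Eya1, Sall1 and Gdnf were higher with BIO in both formats, and Wt1, Osr1, Meox1 and Crym were lower. None of the 9 passed the interaction.

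The Iroquois factors Irx5 and Irx3 both rose more in dispersed cells. Irx5 went from 102, 91.9 and 111 to 301, 345 and 239 in aggregates. In dispersed cells it went from 113, 121 and 86.5 to 1449, 1886 and 1796, 15.9-fold higher than in DMSO. The DMSO groups overlapped and the BIO groups did not, and the interaction was -2.47 ± 0.30 (adjusted p = 0.000456), or -2.52 (adjusted p = 0.00986) with the beta-actin covariate. Irx3 reached 235, 217 and 194 and 548, 572 and 572, with an interaction of -1.58 ± 0.29 (adjusted p = 0.01). Among the largest negative interactions outside the lists, Mybpc1, a myosin-binding protein of skeletal muscle, reached 648, 590.0 and 663 in aggregates and 1605, 1477 and 1680.0 in dispersed cells, with an interaction of -2.49 ± 0.30 (adjusted p = 0.000456) that 1 of 2 other probe sets shared. Klhl29, a kelch-domain protein, gave -2.34 ± 0.40 (adjusted p = 0.00554), with 132, 162 and 62.6 against 374, 332 and 399 under BIO.

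Of 19 measured BMP and TGF-beta ligand and feedback genes, 2 had a positive and 2 a negative interaction. The positive ones were Bmp2, above, and Id4, a BMP-induced inhibitor of helix-loop-helix factors, with 0.69 ± 0.15 (adjusted p = 0.028); the BIO arrays of Id4 overlapped between formats and the DMSO arrays did not, and the call was lost in 9 of the 12 leave-one-out fits (adjusted p up to 0.0784). Inhba, the activin A subunit, fell in aggregates from 1503, 1398 and 699 to 7.2, 11.4 and 10.2, below background. The fall in dispersed cells was from 1899, 1899.9 and 1942 to 171, 80.3 and 158, still above it. The interaction was -2.89 ± 0.47 (adjusted p = 0.00437), but with values raised to background it was -0.86 (adjusted p = 0.48). Tgfb2, a TGF-beta ligand, fell 6.51-fold in aggregates, from 2850.5, 2262 and 1424 to 349, 309 and 306. In dispersed cells it read 2528, 2449.6 and 2229.9 in DMSO and 1421, 1962 and 1792 with BIO, a change that did not pass, and the interaction was -2.21 ± 0.37 (adjusted p = 0.00544). Neither Inhba nor Tgfb2 passed with the beta-actin covariate (adjusted p = 0.10 and 0.12).

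Igfbp5, an IGF-binding protein described after its values were seen, had the smallest adjusted p of the named genes. It fell in aggregates from 5109.6, 4501 and 4255 to 1175, 1029.8 and 1028. The dispersed values, 2648, 3152 and 2689.6 in DMSO and 2665, 2436 and 2772 with BIO, overlapped. The DMSO levels also differed between formats, and the interaction was -1.99 ± 0.15 (adjusted p = 4.19e-06), or -1.98 (adjusted p = 0.000421) with the beta-actin covariate, while its other probe set did not pass. Cdkn1c, the p57 cell cycle inhibitor and the 1 called gene of the 11 measured on the podocyte list, fell to 318, 319 and 365 in aggregates and to 1134, 1111 and 982 in dispersed cells, with an interaction of -1.65 ± 0.32 (adjusted p = 0.0131), and an adjusted p of 0.24 with the covariate. Lrrc20, a leucine-rich repeat protein, and Mfsd2a, a lipid transporter, fell below background in aggregates with BIO only. Their interactions were -3.21 ± 0.64 (adjusted p = 0.0161) and -2.38 ± 0.45 (adjusted p = 0.0121), and both calls were lost with values raised to background (adjusted p = 0.53 and 0.99). Lrrc20 also lost its call without the first aggregated BIO array (adjusted p = 0.0522).

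BIO lowered nearly all serum response and contractile genes in both formats, 19 of 20 in aggregates and 20 of 20 in dispersed cells. Over all genes the shares called for BIO in either direction were 30.0% and 28.8%. The size of the fall differed for 2 of the 20. Filip1l, a filamin-interacting protein, fell to 375, 421 and 446 in aggregates and to 932, 917 and 1079.8 in dispersed cells, with an interaction of -1.28 ± 0.21 (adjusted p = 0.0054). Acta2, smooth muscle actin, fell to 2110.1, 2492 and 2425 and 3688, 3568 and 3671, with -0.57 ± 0.13 (adjusted p = 0.0425). Its call was lost in 11 of the 12 leave-one-out fits (adjusted p up to 0.11), and the mean of its 3 probe sets gave 0.06. Of 14 YAP/TAZ targets, Ccn2, the connective tissue growth factor, was the 1 called, falling 9.61-fold in aggregates and 5.45-fold in dispersed cells, with -0.82 ± 0.16 (adjusted p = 0.014). The median of that list was 0.21, opposite in sign to Ccn2, and 0.05 with the beta-actin covariate. Neither Acta2 nor Ccn2 passed with that covariate (adjusted p = 0.0972 and 0.0986).

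Of 14 mesenchymal transition genes 2 had a negative interaction. Prrx1, a homeobox factor of mesenchyme, fell 3.30-fold in aggregates, from 1523, 1704 and 1742 to 545, 546 and 419.9. Dispersed cells gave 1823, 1798 and 1921 in DMSO and 1499.7, 1348 and 1448 with BIO, an effect that did not pass. The interaction was -1.36 ± 0.21 (adjusted p = 0.00243), and -1.73 (adjusted p = 0.00239) with the beta-actin covariate. Cdh11, a mesenchymal cadherin, gave -0.61 ± 0.13 (adjusted p = 0.033), and lost its call in 10 of the 12 leave-one-out fits (adjusted p up to 0.0863). On the list of 31 cadherin and cell junction genes, Cdh11, Cdh4 and Cdh6 were negative and F11r, the junctional adhesion molecule A, positive. Cdh4 rose in both formats, to 2087, 2303 and 2364 in aggregates and 3271, 3164 and 3240.1 in dispersed cells, with -0.88 ± 0.18 (adjusted p = 0.0229). Cdh6 fell in aggregates, from 2757, 3460.2 and 3625 to 1601, 1529.9 and 1504. In dispersed cells it read 2733, 2339 and 2447 in DMSO and 2193, 2036 and 2112 with BIO, a smaller fall that did not pass. The interaction of Cdh6 was -0.83 ± 0.16 (adjusted p = 0.0123). F11r gave 0.79 ± 0.18 (adjusted p = 0.0395). The calls of Cdh4 and F11r were lost in 6 of the 12 and 10 of the 12 leave-one-out fits (adjusted p up to 0.0676 and 0.11). None of Cdh11, Cdh4, Cdh6 and F11r passed with the beta-actin covariate (adjusted p from 0.0561 to 0.41).

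Of 13 FGF and MAPK feedback genes, the receptor tyrosine kinase inhibitors Spry2 and Spry1 had a positive interaction, and the list's median was 0.43 (0.25 with the beta-actin covariate, with which neither gene passed). With BIO, Spry2 read 613, 590.4 and 566 in aggregates and 345, 372 and 325 in dispersed cells, and Spry1 2006, 2166 and 1616 and 1383, 1261 and 1221. Their interactions were 0.99 ± 0.23 (adjusted p = 0.0439) and 0.59 ± 0.13 (adjusted p = 0.0392), and the calls were lost in 11 of the 12 and 9 of the 12 leave-one-out fits (adjusted p up to 0.12 and 0.11).

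Among the 24 genes that BIO moved in opposite directions, Fgfr2, the receptor for FGF ligands of the bud and cap, rose in aggregates from 617, 610.0 and 662 to 962, 970.0 and 1038. Dispersed cells went the other way, from 755, 718 and 720.1 to 575, 528 and 572. The groups did not overlap in either format and the interaction was 1.04 ± 0.14 (adjusted p = 0.000959), though neither of its 2 other probe sets passed. Hmgn5, a nucleosome-binding protein, rose in aggregates to 951, 734 and 770.0 and fell in dispersed cells to 405, 491 and 409.5, with 1.48 ± 0.22 (adjusted p = 0.00243). Tnfaip6, a hyaluronan-binding protein, gave 1.31 ± 0.29 (adjusted p = 0.028), and Diaph1, a formin that builds actin filaments, gave 0.81 ± 0.16 (adjusted p = 0.0179). These last calls were lost in 7 of the 12 and 3 of the 12 leave-one-out fits (adjusted p up to 0.0853 and 0.0555).

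In the other direction, Mta3, a subunit of a chromatin remodelling complex, fell in aggregates from 458, 488 and 469.5 to 251, 276 and 231 and rose in dispersed cells from 388, 438 and 365 to 553, 479 and 598. Its interaction was -1.35 ± 0.16 (adjusted p = 0.000361), and -1.47 (adjusted p = 0.00367) with the beta-actin covariate. Epb41l4a, a band 4.1 family protein induced by beta-catenin, gave -1.14 ± 0.17 (adjusted p = 0.00242), with 623, 594 and 551 in aggregates and 983, 1114 and 1097 in dispersed cells under BIO. Glrb, the glycine receptor beta subunit, gave -1.54 ± 0.29 (adjusted p = 0.0125), and Tmem169, a membrane protein near background, gave -1.97 ± 0.36 (adjusted p = 0.00902). Clip4, a microtubule-binding protein, gave -1.67 ± 0.33 (adjusted p = 0.0166), and lost its call without the first aggregated BIO array (adjusted p = 0.0547). Glrb, Tmem169 and Clip4 did not pass with the covariate (adjusted p = 0.2, 0.12 and 0.27).

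Markers of other cell types were read beside these results. The 6 stromal markers were all above background, and their summed signal fell with BIO in both formats. It went from 13346 to 14220 down to 3591 to 3924 in aggregates and from 12422 to 13351 down to 3194 to 3404 in dispersed cells. Meis1, 1 of the 6, did not share this fall. Its group means were 722 in DMSO and 715 with BIO in aggregates, and 528 and 707 in dispersed cells. Pdgfrb, a receptor of pericytes and stroma and 1 of the 6, had a positive interaction. It fell from 1485, 1273 and 1689 to 212, 282 and 293 in aggregates and from 1724, 1879 and 1619.6 to 62.2, 77.8 and 64.1 in dispersed cells, with 2.16 ± 0.34 (adjusted p = 0.00385), and was also the 1 called gene of the 18 on the wider stromal list. The 5 leukocyte markers summed to 757 to 1314 in aggregates with BIO and to 505 to 698 in dispersed cells with BIO, against 1295 to 1626 in the DMSO groups. Their group means differed in direction. Csf1r and Adgre1 fell with BIO in both formats. Cd68 rose in both, from 128 to 211 in aggregates and from 148 to 217 in dispersed cells. Ptprc and Tyrobp were higher with BIO in aggregates and lower with it in dispersed cells. None of the 5 passed the interaction, and Ptprc, the pan-leukocyte antigen, lay near or below background with 2.26 ± 0.93 (adjusted p = 0.33), or 0.25 (adjusted p = 0.86) with values raised to background. The part of these cells in the interaction was not tested. The endothelial markers summed to 314 to 622 and the ureteric bud markers to 443 to 674 over the 12 arrays, the highest arrays being aggregated BIO ones in both, and the erythroid markers were below background in all groups.

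**Figure D4:**
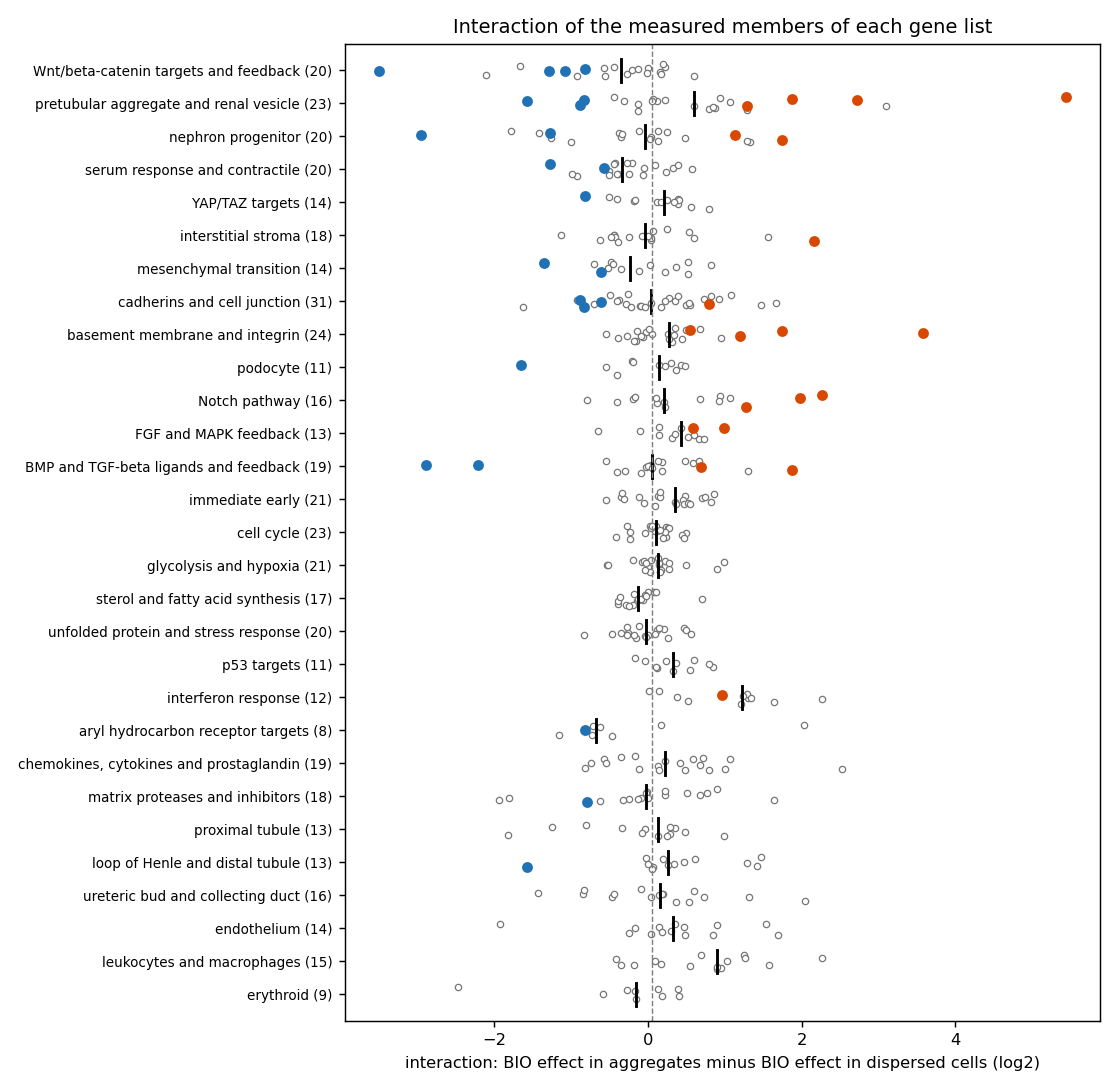
Interaction (log2) of each measured member of each gene list, with the number measured in brackets; filled orange and blue points passed the threshold, open points did not, black bars are list medians and the dashed line is the median of all genes, 0.05. The called members of the Notch and basement membrane lists are all positive and those of the Wnt target list all negative, and the interferon and leukocyte medians, 1.23 and 0.89 with 1 and 0 calls, fell to 0.89 and 0.21 with values raised to background.

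Other lists held no called interaction, a count to be read against the 1.57% called over all genes, at which lists of this size would mostly hold none. Over all genes 12.1% had an unadjusted p under 0.05 for the interaction. The BIO effect was called in either direction for 30.0% of all genes in aggregates and 28.8% in dispersed cells. BIO raised 15 of 23 cell cycle genes in aggregates and 14 in dispersed cells, and limma called the interaction of none (3 at an unadjusted p under 0.05, median 0.10, or -0.0021 with the beta-actin covariate). BIO lowered 14 of 21 immediate early genes in aggregates and 16 in dispersed cells, again with 0 calls (6 unadjusted, median 0.35, or 0.14 with the covariate). The Kruppel-like factor Klf4 had the largest interaction of that list, 0.87 ± 0.24 (adjusted p = 0.0938). No call was made by limma among 21 glycolysis and hypoxia genes (4 unadjusted), 17 of sterol and fatty acid synthesis (3), 20 of the unfolded protein response (3), 11 p53 targets (3), 19 chemokines and cytokines (3), 13 of the proximal tubule (2), 16 of the ureteric bud (1), 14 of endothelium (4), 15 of leukocytes (5) or 9 erythroid genes (1). The largest of these, the chemokine Cxcl2, read 136, 609 and 752 in aggregates with BIO and had an interaction of 2.53 ± 0.71 (adjusted p = 0.11).

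The leukocyte list had a median of 0.89 and the interferon list one of 1.23, where the pooled spread of that median between arrays of a group was 0.33 and 0.82. With values raised to background these medians were 0.21 and 0.89. A pseudocount of 16 gave 0.51 for the leukocyte list, leaving out the second aggregated BIO array gave 0.50 for it, and leaving out the third dispersed DMSO array gave 0.61 for the interferon list. Of 12 interferon genes the 1 called was Ifit2, an interferon-induced protein, with 0.96 ± 0.20 (adjusted p = 0.0207); its format effect passed in DMSO and not with BIO, and the call was lost in 6 of the 12 leave-one-out fits (adjusted p up to 0.0632). Indirubins are known ligands of the aryl hydrocarbon receptor, and of 8 targets of that receptor 1 was called: Cyp1b1, a cytochrome P450, fell to 1537, 1311 and 1676 in aggregates and 2973, 2547 and 2854 in dispersed cells, with -0.82 ± 0.16 (adjusted p = 0.0161). Of 18 matrix proteases and inhibitors 1, Adamts1, was called, with -0.80 ± 0.19 (adjusted p = 0.0438), and it lost its call in 12 of the 12 leave-one-out fits (adjusted p up to 0.11). Irx3 was the 1 called gene of the 13 on the loop of Henle and distal tubule list.

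Of the 68 called genes named here, 30 kept their call with the beta-actin control as a covariate and 38 did not, and none changed sign. Because that control itself followed the groups, a lost call does not tell a technical difference from a BIO effect. Those that kept it were Lhx1, Lhx1os, Plcd4, Svopl, Sco2, Colec11, Bmp2, Fgfr2, Itga8, Hey1, Id4 and Pax8 on the positive side and Wif1, Dcc, Fgf20, Mybpc1, Irx5, Klhl29, Ror1, Mta3, Epb41l4a, Tnfrsf19, Irx3, Rspo3, Filip1l, Prrx1, Wnt5a, Epha3, Flrt3 and Igfbp5 on the negative side. For 47 the call held in every fit that left out 1 of the 12 arrays. The mean of all probe sets of a gene kept 42 calls, lost 23 and turned the sign of 3. The calls lost were those of Plcd4, Lama4, Papss2, Gsta3, Ror1, Fgfr2, Clip4, Mta3, Nkd1, Rspo3, Prrx1, Cdh11, Cdh4, Cdh6, Lamb1, Spry2, Spry1, Cyp1b1, Adamts1, Wnt5a, Epha3, Igfbp5 and Pax8, and Diaph1, Acta2 and F11r changed sign. Of the 68 called genes, 40 had more than 1 probe set, and 11 of their 82 other probe sets, on 9 genes, passed in the same direction and none in the opposite one. With values below background raised to it, 63 of the 68 calls held, and those lost were Lhx1os, Gsta3, Lrrc20, Inhba and Mfsd2a. On linear signal 44 held, 2 changed sign (Inhba and Ccn2) and 22 were lost, those of Lhx1, Lhx1os, Svopl, Papss2, Lrrc20, Mfsd2a, Tnfaip6, Epb41l4a, Irx3, Filip1l, Acta2, Pdgfrb, Cdh11, F11r, Nid2, Cdkn1c, Hey1, Hes1, Spry1, Tgfb2, Cyp1b1 and Adamts1.

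**Figure D5:**
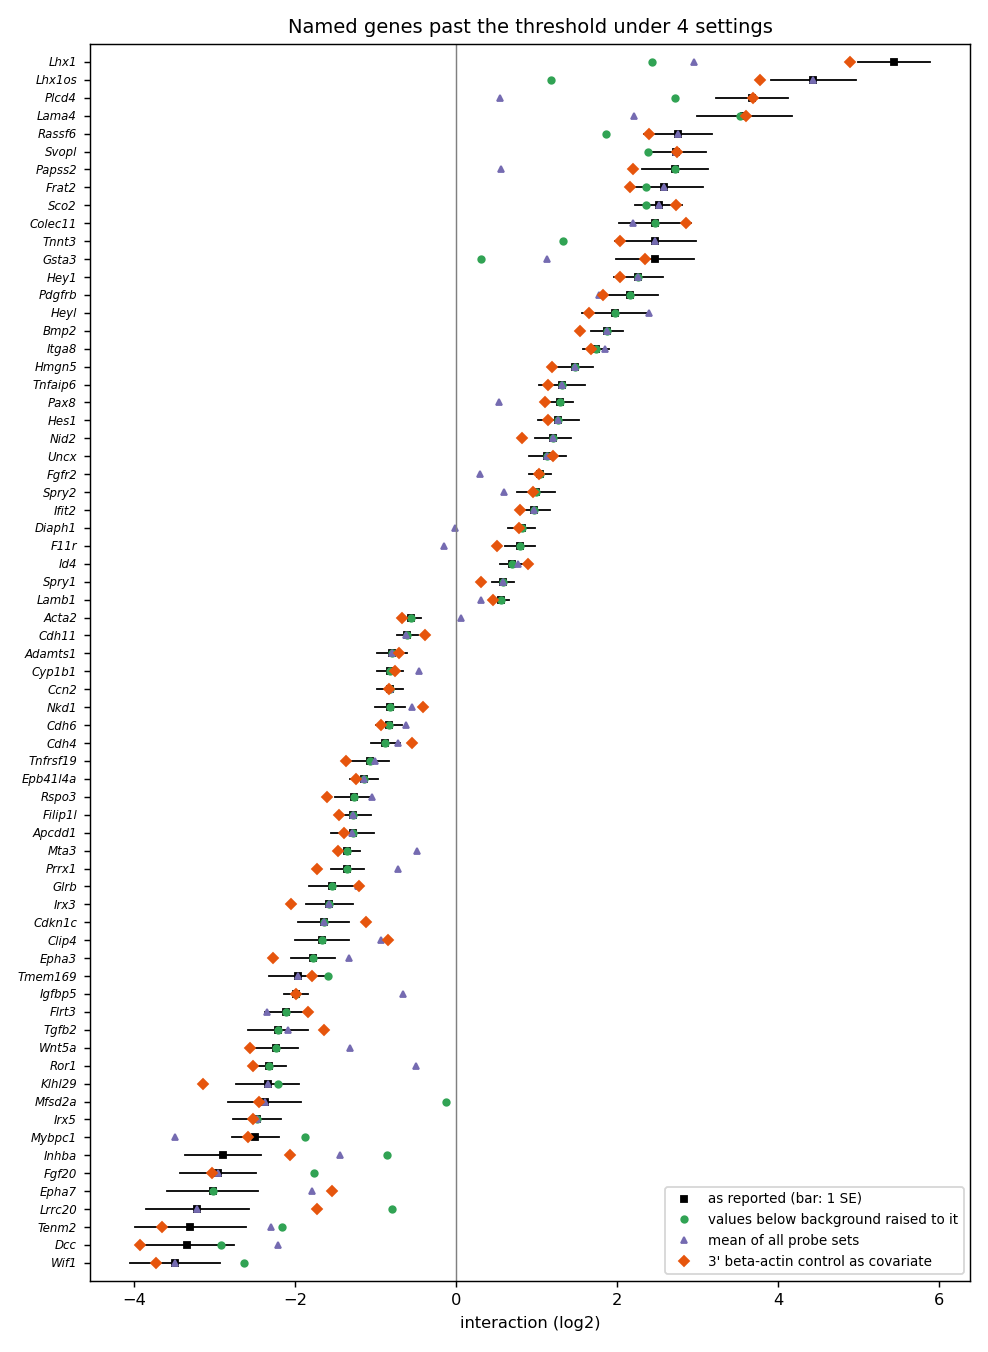
Interaction (log2) of the 68 called named genes, ordered by size, as reported (black squares with 1 SE) and under 3 other settings: values below background raised to it (green), the mean of all probe sets (purple) and a fit with the beta-actin control as covariate (orange). Raising values to background shrinks the interactions of genes with a dim group, such as Lhx1, Gsta3 and Mfsd2a, and the mean of all probe sets is near 0 for Diaph1 (-0.01) and Acta2 (0.06) and 0.55 for Plcd4, reported at 3.67.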

How the data were processed

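RNA of each sample was amplified in 2 rounds with a TargetAmp kit and labelled with biotin, per the labels' protocols, which favours the 3′ end of transcripts. Of the 12 arrays, the aggregated ones had a 3′ to 5′ ratio of the Gapdh control of 11.4 to 15.4 and the dispersed ones of 9.29 to 12.4. The authors deposited 1 table of linear intensity values for 45101 probe sets on 21 arrays, from 0.1 to 18025. No label or header records the software, background correction or scaling behind these intensity values. The number of arrays limits the precision.

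From the deposited values, log2(value + 1) was taken after quantile normalisation over all probe sets. Of the probe sets 34945 had 1 gene symbol, 34741 of them through RefSeq and 204 through the platform's table alone, 932 had several and 9160 none; those with 1 symbol covered 18193 genes, each read by its brightest probe set. limma 3.58.1 in R 4.3.3 (lmFit and eBayes) was fitted to all 21 arrays with 1 mean per group, leaving 14 residual degrees of freedom to which eBayes added 1.62. The p-values were two-sided and adjusted over all genes, and the threshold was 0.05. The text gives log2 interactions with their SE and this adjusted p, 3 arrays per group. A fold against a group below background (41.8, the 95th percentile over the 27 probe sets of bacterial controls) raises its arrays to that level and is written as at least. Other folds are ratios of geometric means.

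Genes named in the text are the 12 largest interactions on each side, up to 6 on each side with opposite BIO effects, up to 4 called members of each gene list (or the largest where none was called), Axin2, Lef1, Sp5, Wnt4, Lhx1, Six2 and Cited1, and 5 genes chosen after their values were seen. The gene lists and the comparison were chosen with earlier results of these data known, and no list was tested as a set. Simulated arrays with planted interactions served to check the script. Alternatives were other scalings, pseudocounts, filters, probe set rules, covariates, weights, the replicate number as a block, and each array left out. No same-numbered arrays could be taken as paired: their deviations from group means correlated from -0.39 to 0.12. Arrays of different numbers correlated from -0.18 to 0.36, highest between the first aggregated DMSO and the third aggregated BIO array. Whether arrays shared a source across the numbers was not tested, and the main fit treats them as independent. Figures were drawn with matplotlib 3.10.9.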

Additional observations from a re-analysis of the deposited data

Results flagged for a closer look

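The BIO effect differed between aggregates and dispersed cells, by the test of the interaction itself, for each of the 68 genes below; values are the BIO effect in aggregates minus that in dispersed cells (log2). Where a group lay below background the size rests in part on readings under it.

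The largest positive differences were those of Lhx1 (5.44), Lhx1os (4.43), Plcd4 (3.67), Lama4 (3.58), Rassf6 (2.75) and Svopl (2.74). These were followed by Papss2 (2.72), Frat2 (2.59), Sco2 (2.51), Colec11 (2.47), Tnnt3 (2.47) and Gsta3 (2.47). Next in size were Hey1 (2.26), Pdgfrb (2.16), Heyl (1.98), Bmp2 (1.87), Itga8 (1.74) and Hmgn5 (1.48). After them came Tnfaip6 (1.31), Pax8 (1.29), Hes1 (1.27), Nid2 (1.20), Uncx (1.13) and Fgfr2 (1.04). Smaller still were Spry2 (0.99), Ifit2 (0.96), Diaph1 (0.81), F11r (0.79), Id4 (0.69) and Spry1 (0.59). The smallest positive values belonged to Lamb1 (0.55).

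The largest negative differences were those of Wif1 (-3.49), Dcc (-3.34), Tenm2 (-3.30), Lrrc20 (-3.21), Epha7 (-3.02) and Fgf20 (-2.96). These were followed by Inhba (-2.89), Mybpc1 (-2.49), Irx5 (-2.47), Mfsd2a (-2.38), Klhl29 (-2.34) and Ror1 (-2.32). Next in size were Wnt5a (-2.24), Tgfb2 (-2.21), Flrt3 (-2.12), Igfbp5 (-1.99), Tmem169 (-1.97) and Epha3 (-1.78). After them came Clip4 (-1.67), Cdkn1c (-1.65), Irx3 (-1.58), Glrb (-1.54), Prrx1 (-1.36) and Mta3 (-1.35). Smaller still were Apcdd1 (-1.29), Filip1l (-1.28), Rspo3 (-1.27), Epb41l4a (-1.14), Tnfrsf19 (-1.07) and Cdh4 (-0.88). Further down stood Cdh6 (-0.83), Nkd1 (-0.82), Ccn2 (-0.82), Cyp1b1 (-0.82), Adamts1 (-0.80) and Cdh11 (-0.61). The smallest negative values belonged to Acta2 (-0.57).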

How the results depend on the processing

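Scaling as deposited, median centring, a pseudocount of 16, a filter on dim genes, the 12 arrays alone, a variance trend with a robust prior and the Gapdh ratio as a covariate gave 235 to 374 calls in place of 285, of which 204 to 278 were among the 285. On the 12 arrays alone, without the spread of the other groups, 279 genes passed (204 shared) and 13 of the 68 named calls were lost. The fit with the replicate block gave 244 calls (229 shared), 116 positive and 128 negative, and lost 6 of the 68 named calls; the numbers do not pair the arrays. Raising values to background gave 425 calls, with 213 positive, 110 rising more or only in aggregates and 77 falling more or only there. Linear signal gave 522 calls, 294 positive (56.3%), with 196 rising more in aggregates and 148 in dispersed cells, and turned the sign of Inhba (587 signal units) and Ccn2 (219.9). The mean of all probe sets gave 150 calls, 73 positive and 77 negative, with 31 rising more in aggregates, 30 falling more in dispersed cells, 53 rising more in dispersed cells and 20 falling more in aggregates, and reversed Diaph1 (-0.014), Acta2 (0.064) and F11r (-0.15). Array weights gave 545 calls, 280 positive and 265 negative; the 4 classes in the same order held 126, 129, 140 and 106 genes and 44 moved in opposite directions. The beta-actin covariate gave 120 calls, 30 positive (25%) and 90 negative, with 13, 15, 59 and 28 genes in those classes and 5 moving in opposite directions. The cause of these shifts was not tested.

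Leaving out 1 array gave 171 to 277 calls, 69 to 136 positive and 100 to 151 negative, with 28 to 61, 35 to 60, 61 to 86 and 28 to 55 genes in those classes and 16 to 27 moving in opposite directions. An alternative chosen after seeing the data left out the third aggregated DMSO and BIO arrays together, which stood apart in the beta-actin control, and gave 346 calls (204 shared), with 89 genes falling more in aggregates and 43 moving in opposite directions. With 3 arrays a group the number of arrays limits the precision, and genes with a group below background have only a bound there.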

Other observations

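The arrays outside the interaction show where its genes stood before culture and at 48 h, with 3 arrays per group and no test. Of the 31 named genes with a called positive interaction, 23 had a mean in aggregated BIO within 2-fold of that in freshly sorted cells, 5 were at least 2-fold above it and 3 at least 2-fold below it, with values raised to background. Aggregated BIO was the nearest to the fresh level of the 4 groups at 24 h for 13 of the 31. Among the 37 named genes with a called negative interaction it was the nearest for 15. Of these 37, 20 lay within 2-fold of fresh in aggregated BIO, 10 at least 2-fold above and 7 at least 2-fold below. The same shares were not taken over all genes. Lhx1 read 289, 292 and 279.8 in freshly sorted cells, 934, 1243 and 1886 in aggregates given BIO for 24 h and DMSO for a further 24 h, and 192, 214 and 460.5 with BIO throughout. Of the 4 groups at 24 h only aggregated BIO, at 198, 346 and 177, was near the fresh level. Lama4 was similar, at 922, 713 and 868 fresh against 732, 833 and 843 in aggregated BIO, and reached 2867, 2911 and 3077 at 48 h after the change to DMSO. Pax8 read 1018, 974 and 866 fresh, 832, 1004 and 780.0 in aggregated BIO and 2219.6, 1881 and 1704 after the change. Uncx read 1922, 1603 and 1545 fresh and 1655, 2025 and 1827 in aggregated BIO. Itga8, at 6671, 6785 and 6654 fresh, was lower in all cultured groups, and aggregated BIO was the nearest to it. Other genes stood far from the fresh level in aggregated BIO: Plcd4 read 56.2, 18.4 and 22.3 fresh against 339, 210.1 and 314, Svopl 123, 104 and 122 against 993, 1437 and 1315, Hey1 937, 681 and 836 against 2228, 2361 and 1550.2 and Colec11 59.1, 59.4 and 71.2 against 655, 692 and 1014.

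The same arrays hold genes with a negative interaction. With BIO throughout for 48 h, Wif1 read 4522, 5060.3 and 4657, Irx5 2559, 1439 and 1570.4, Wnt5a 1175, 1086 and 1336 and Dcc 1486, 1212 and 1394 in aggregates, all above the aggregated BIO arrays at 24 h. After the change to DMSO, Wif1 read 40.0, 21.7 and 32.5 and Dcc 43.3, 31 and 16.9. Fgf20 read 191, 254 and 243 with BIO throughout, overlapping its 295, 265 and 235 at 24 h. Igfbp5, at 9614, 9114 and 8853 fresh and 1175, 1029.8 and 1028 in aggregated BIO at 24 h, read 4697, 4552 and 4411 with BIO for 48 h.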
